A study of Mus musculus and Sus scrofa with 30 samples.

Results

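Dicoumarol was compared with its DMSO vehicle in porcine dedifferentiated fat (DFAT) cells, which are fat cells that have lost their lipid and returned to a dividing, fibroblast-like state. The comparison rests on 6 of the series' 30 bulk RNA-seq libraries: 3 from cells given dicoumarol and 3 from cells given vehicle, chosen by the treatment in their labels. All 6 libraries came from cells in the same adipogenic medium, sampled on day 5: a serum content of 2%, 0.5 µM dexamethasone (a glucocorticoid), 12.5 µM isobutyl methylxanthine (IBMX, a phosphodiesterase inhibitor that raises cyclic AMP), 20 µM biotin and 10 µM pantothenate. The vehicle cells therefore carry the same glucocorticoid and cyclic AMP stimulus as the dicoumarol cells. Further DFAT groups of 3 libraries each received magnolol (a lignan of magnolia bark), rosiglitazone (a synthetic agonist of PPARγ) or dicoumarol with magnolol, and the same 5 treatments were given to murine 3T3-L1 preadipocytes. No source used here gives the compound doses or says whether DFAT cells were 1 clone, 1 animal or a pool. The labels do not say that replicates came from separate cultures, so p-values measure the spread between these samples, which may be technical.

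Dicoumarol is a coumarin anticoagulant that blocks the vitamin K cycle, and it also inhibits NQO1, a quinone reductase whose gene is a target of the stress-responsive factor NRF2. During fat cell formation the C/EBP factors and PPARγ switch on a programme of lipid droplet coats, fatty acid carriers, triglyceride enzymes and secreted adipokines, while matrix and fibroblast genes usually decline. Glucocorticoid and cyclic AMP signals start that programme, and phosphodiesterases end the cyclic AMP signal. The series title names the purpose, which is to raise fat cell formation for food production.

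Depth, estimated from the value of 1 read, lay between 57.8 and 70.5 megareads per library. The 10 top genes held 17.0% to 17.8% of normalized counts with vehicle and 19.7% to 20.5% with dicoumarol. Transcripts of the mitochondrial genome took 9.58% to 10.2% and 10.7% to 11.7%, so neither share overlapped between groups. The parts of these shares in the gene results were not tested. Markers fixed for the labelled cell type were present: fibroblast and preadipocyte markers summed to between 1949860 and 2074590 normalized counts in vehicle and between 2546950 and 2650090 in dicoumarol libraries, with 11 of 12 listed genes in the table. COL1A1 alone held a mean of 1039190 in vehicle and 1564550 with dicoumarol, most of the sum and of its difference, while 3 other markers on the list were called lower. Of the listed fibroblast genes, PI16 and DLK1 stayed under 20 in all 6. The endothelial genes KDR, ROBO4, CDH5 and VWF and the leukocyte genes PTPRC and CD3E were at 0 in all 6 libraries. Endothelial markers summed to 491 to 504 in vehicle and 438 to 447 in dicoumarol libraries, leukocyte markers to 844 to 1035 and 841 to 1051, and epithelial markers to 43.1 to 51.4 and 45.2 to 53.1. The Schwann and neural sum was 156 to 188 and 246 to 254. The parts of these cell types in the gene results were not tested.

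Of 34307 genes in the table, 14819 averaged 10 or more normalized counts in the 15 DFAT libraries and were tested with limma on log2(normalized count + 1), a scale on which the change of low genes is understated. A gene is called here when its Benjamini-Hochberg adjusted p was under 0.05. Dicoumarol changed 288 genes, which is 1.94% of those tested: 135 rose (0.911%) and 153 fell (1.03%). Of the 14819 genes, 7428 were above 0. Counts within the gene lists below are to be read beside these shares. A list with 1 called gene is not read as a result about the list. The changes were mostly small. Of the 288, 170 moved by less than 1.5-fold and 45 by at least 2-fold (22 higher and 23 lower), and the median log2 fold change over all tested genes was 0.00. At an unadjusted p under 0.05, 769 genes were above 0 and 735 below. In 287 of the called genes the 3 dicoumarol libraries lay wholly on 1 side of the 3 vehicle libraries; over all tested genes 9.80% were separated in this way with dicoumarol higher and 9.47% with dicoumarol lower. The count depended on the libraries. Leaving out vehicle replicate 1 gave 163 genes, and leaving out dicoumarol replicate 1, 2 or 3 gave 165, 154 or 153.

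**Figure D1:**
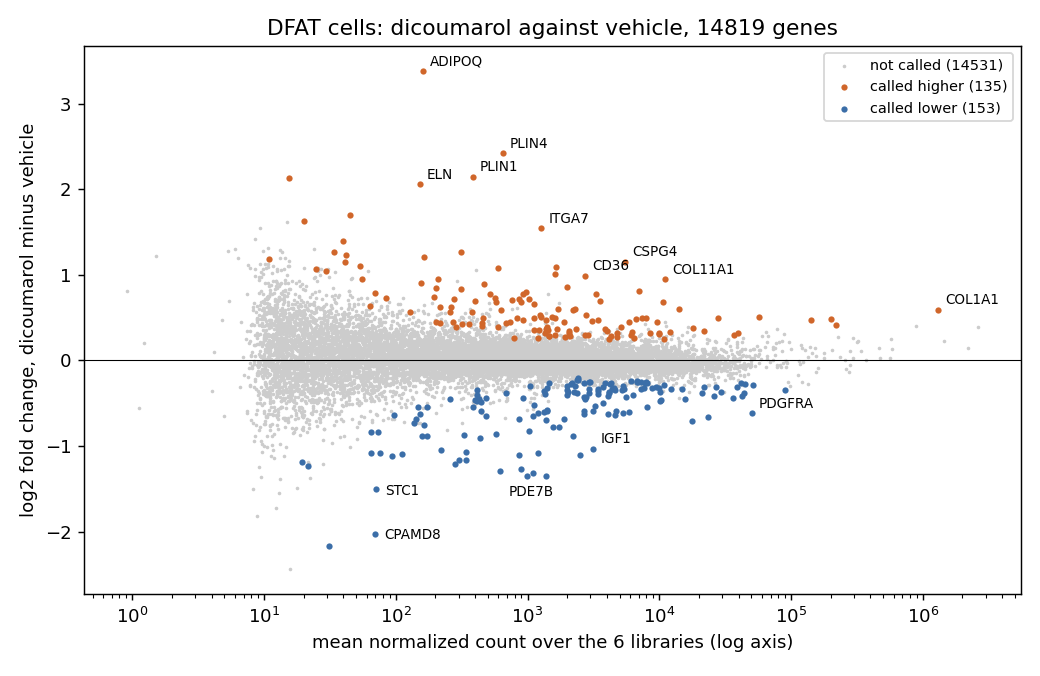
Log2 fold change of dicoumarol minus vehicle (vertical axis) against the mean normalized count over the 6 libraries (horizontal, log axis) for 14819 genes, 1 point per gene. Orange points are the 135 genes called higher, blue points the 153 called lower, and grey points were not called; ADIPOQ stands highest at 3.39, and COL1A1 is the most abundant labelled gene.

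The largest rise was in ADIPOQ, which encodes the fat cell hormone adiponectin, and the next were in genes of the lipid droplet coat. The largest changes were taken among called genes averaging 50 or more in the 6 libraries, with no overlap between the groups. The 10 largest rises were in ADIPOQ, PLIN4, PLIN1, ELN, ITGA7, AQP3, HSPB7, CSPG4, KIF5A and FABP3. The 10 largest falls were in CPAMD8, STC1, PDE7B, CBLN4, PDE4B, AMCF-II, PDE4D, NR4A1, ESM1 and NPTX1. Rises thus included fat cell genes next to an elastic fibre gene and genes of muscle-like and perivascular cells. Falls included 3 phosphodiesterases, genes that respond to cyclic AMP and secreted factors. Of these 20 genes, HSPB7 lost its call without vehicle replicate 1 (limma adjusted p 0.057) or dicoumarol replicate 3 (0.067). ESM1 lost it without vehicle replicate 3 (0.051) or dicoumarol replicate 1 (0.051), and KIF5A without vehicle replicates 1 or 3 or dicoumarol replicates 1 or 2 (0.054 to 0.12).

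**Figure D2:**
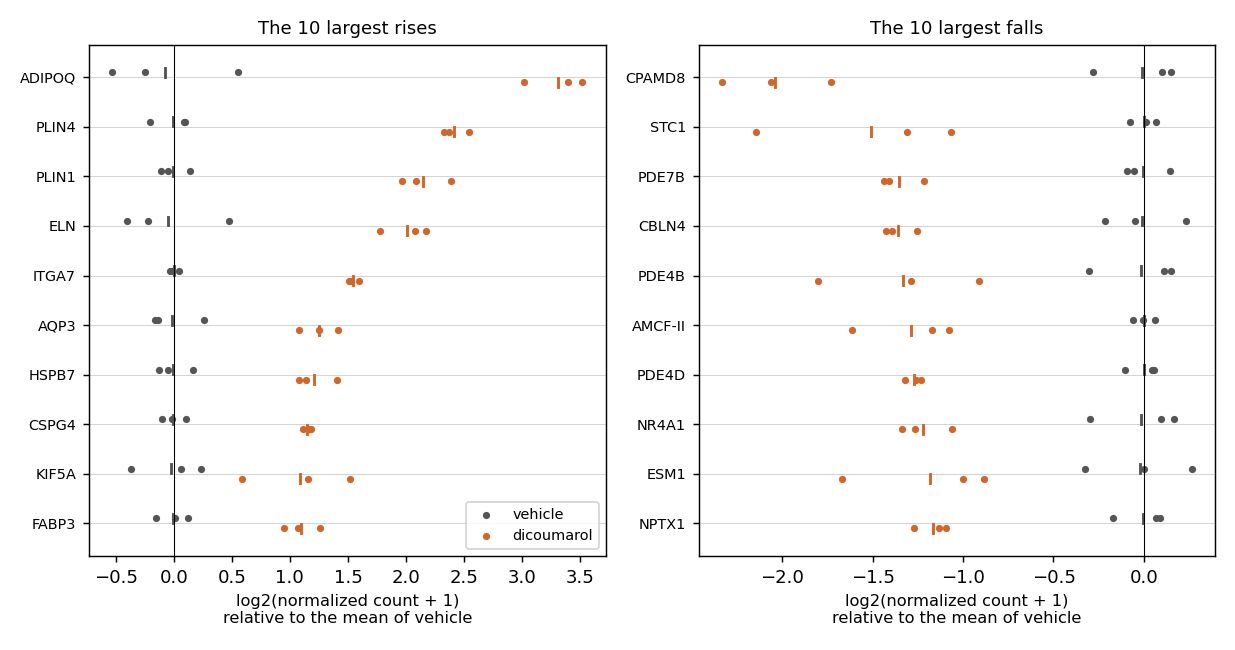
The 10 largest rises (left) and falls (right), each point 1 library, on log2(normalized count + 1) minus the log2 of the vehicle mean + 1 (horizontal axis); grey is vehicle, orange dicoumarol, and the short bars are group means. Only genes with no overlap between the groups were eligible, so the gap between the points in all 20 follows from the choice. ADIPOQ has the longest shift and STC1 the widest spread among the falls.

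Adiponectin and 3 lipid droplet genes rose. ADIPOQ (ENSSSCG00000039103, chromosome 13, 124633685 to 124646646, plus strand) had 23.7, 42.0 and 19.3 normalized counts in vehicle replicates 1 to 3 and 237, 307 and 335 in dicoumarol replicates 1 to 3. Every dicoumarol library was several times above the highest vehicle library (log2 fold change 3.39, SE 0.22, limma adjusted p = 5.7e-08). PLIN1 (ENSSSCG00000001844, chromosome 7, 55236348 to 55250797, minus strand), which encodes the coat protein that gates lipase access to the fat droplet, had 130.2, 155 and 135 in vehicle and 736, 597 and 549.6 with dicoumarol (log2 fold change 2.15, SE 0.10, limma adjusted p = 1.7e-09). PLIN4, a coat protein of young droplets, had 217, 219 and 177 with vehicle and 1198, 1061 and 1028 with dicoumarol (log2 fold change 2.42, SE 0.10, limma adjusted p = 4.0e-10). In both genes the vehicle libraries lay close together and far below the dicoumarol libraries. CIDEC, which fuses droplets, rose from a mean of 326 ± 52.1 to 606 ± 118 (SD, n = 3; log2 fold change 0.89, SE 0.14, limma adjusted p = 0.0018). In bulk samples, a larger share of fat-laden cells and more of these transcripts per cell cannot be told apart. Of 15 listed droplet genes, 12 passed the filter on low values, 3 of these rose and 0 fell, with a median log2 fold change of 0.15. Of 14 tested adipokines and other proteins secreted by adipocytes, of 16 listed, ADIPOQ rose and 0 fell, with a median of 0.15.

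Among carriers of fatty acids, CD36, FABP3 and FABP4 rose. CD36, the membrane fatty acid translocase, had 1901, 1787 and 1785 normalized counts in vehicle and 3931, 3513 and 3466 in dicoumarol libraries (log2 fold change 0.99, SE 0.10, limma adjusted p = 1.6e-05). The groups did not overlap, and the lowest dicoumarol library was far above the highest vehicle library. FABP3 rose from 1044 ± 98.5 to 2236 ± 244 (SD, n = 3; log2 fold change 1.10, SE 0.12, limma adjusted p = 5.0e-05) and FABP4 from 651 ± 141 to 1063 ± 125 (log2 fold change 0.72, SE 0.12, limma adjusted p = 0.0018). Both are cytosolic fatty acid binding proteins, FABP4 being the abundant form of adipocytes. Of 15 tested uptake and carriage genes of 17 listed, 3 rose and 0 fell, with a median of 0.09. LPL, the lipase that frees fatty acids from lipoproteins, was already at 15637 ± 1408 in vehicle and was not called (log2 fold change 0.09, SE 0.08, limma adjusted p = 0.81); it is named here after its values were seen.

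Lipolysis and lipid synthesis each had few called genes. LIPE, which encodes hormone-sensitive lipase, had 404, 426 and 314 in vehicle and 922, 719 and 778 with dicoumarol (log2 fold change 1.08, SE 0.12, limma adjusted p = 5.6e-05), with no overlap, and was the 1 gene called of 8 tested in the lipolysis list. THRSP, a lipogenic regulator, rose from 210.4 ± 22.8 to 346 ± 5.98 (SD, n = 3; log2 fold change 0.72, SE 0.11, limma adjusted p = 0.00089). INSIG1, the sterol-regulated retention protein of the SREBP pathway, rose from 10772 ± 234 to 13538 ± 613 (log2 fold change 0.33, SE 0.08, limma adjusted p = 0.028). THRSP and INSIG1 were the 2 genes called of 18 tested for fatty acid synthesis. INSIG1 was the 1 called of 24 for cholesterol synthesis, where 21 genes were above 0 (7428 of 14819 over all tested genes) and the median was 0.14. In triglyceride synthesis 1 of 17 tested genes was called, PCK2, the mitochondrial enzyme that makes phosphoenolpyruvate (log2 fold change 0.28, SE 0.07, limma adjusted p = 0.038). The INSIG1 and PCK2 calls were lost without any 1 of the 6 libraries (limma adjusted p 0.058 to 0.15 and 0.060 to 0.18).

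No adipogenic transcription factor was called higher. PPARG, the master receptor of fat cells, had 969, 909.7 and 901 in vehicle and 992, 1091 and 967 in dicoumarol libraries (log2 fold change 0.13, SE 0.07, limma adjusted p = 0.56), and the groups overlapped. CEBPA had 455, 517 and 401 with vehicle and 378, 366 and 349 with dicoumarol (log2 fold change −0.32, SE 0.14, limma adjusted p = 0.43), groups that did not overlap and did not pass the test. Of 23 tested adipogenic factors of 24 listed, limma called 0 higher (at an unadjusted p under 0.05, 3 were higher and 5 lower) and 1 fell: EBF2, a factor of committed preadipocytes, went from 1156 ± 29.6 to 939 ± 7.65 (SD, n = 3; log2 fold change −0.30, SE 0.06, limma adjusted p = 0.018), a call that held without vehicle replicate 2 and was lost without any 1 of the other libraries (limma adjusted p 0.066 to 0.093). The median of the list was 0.03. Of 12 markers of mature adipocytes, 7 rose and 0 fell, and the median was 0.94; their summed level was 18135 to 20950 normalized counts in vehicle and 24232 to 26401 in dicoumarol libraries. ADIPOQ, PLIN4, PLIN1, LIPE, CD36, CIDEC and FABP4 are the 7.

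Most adipocyte markers were lower with dicoumarol than with the other compounds; no source used here gives the dose of any of them. Mean ADIPOQ was 293 ± 50.7 with dicoumarol, 1522 ± 346 with magnolol and 3979.8 ± 643 with rosiglitazone (SD, n = 3; dicoumarol minus magnolol −2.36, limma adjusted p = 1.1e-05; minus rosiglitazone −3.76, 3.2e-09). Mean PLIN1 was 628, 2116 and 4683, and mean CD36 was 3637, 8793 and 17690.4. Of the 12 mature adipocyte markers, 9 were called lower than with magnolol and 10 lower than with rosiglitazone. Over all tested genes the shares called lower were 1.26% and 6.96%. CIDEC was the droplet gene with no call against magnolol (−0.39, limma adjusted p = 0.27) among those that rose. PCK1, the cytosolic glyceroneogenic enzyme, named here after its values were seen, had 12.7, 24.3 and 4.07 in vehicle and 52.6, 37.7 and 11.8 with dicoumarol, overlapping groups that were not called (log2 fold change 1.31, SE 0.49, limma adjusted p = 0.28), and mean values of 184 with magnolol and 1967 with rosiglitazone.

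Of the 4 mitochondrial lists, 3 had no called gene. CPT2, the inner-membrane carnitine transferase of fatty acid oxidation, fell from 3072 ± 164 to 2279.7 ± 149 (SD, n = 3; log2 fold change −0.43, SE 0.08, limma adjusted p = 0.0049), the 1 called gene of 20 tested in that list. In the citric acid cycle and branched-chain amino acid list limma called 0 of 28 tested genes, and 1 had an unadjusted p under 0.05. Its most abundant members were CS (log2 fold change −0.02, limma adjusted p = 0.96) and OGDH (0.06, 0.91). Of 38 tested nuclear subunits of the respiratory chain limma called 0, and 0 had an unadjusted p under 0.05, with ATP5F1A at −0.03 and ATP5F1B at −0.03. The 13 protein-coding genes of the mitochondrial genome were all above 0 with a median of 0.14, limma called 0, and 0 had an unadjusted p under 0.05. COX1 was at 0.23 (limma adjusted p = 0.75) and turned to −0.09 after quantile normalization. That setting gives a value by rank and could show little of a change in a gene as abundant as COX1.

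**Figure D3:**
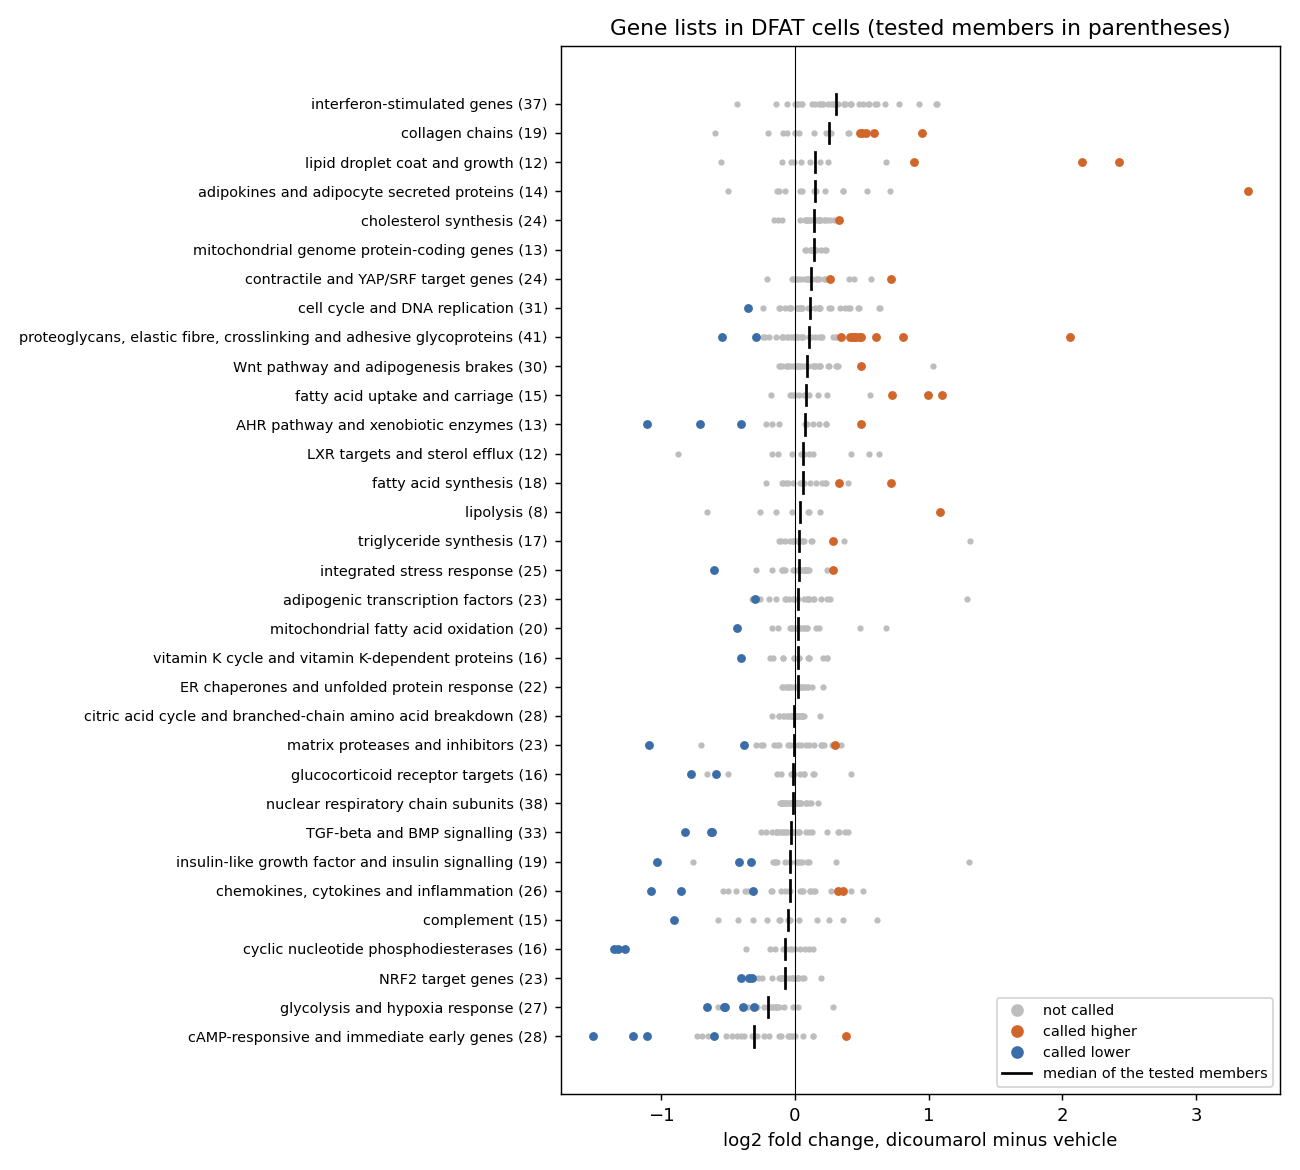
Log2 fold change of dicoumarol minus vehicle (horizontal axis) for the tested members of 33 gene lists (rows, number tested in parentheses), ordered by list median, with 1 point per gene, orange if called higher, blue if called lower, grey if not called, and a black bar at the list median. Medians run from 0.30 for interferon-stimulated genes, which have no called member, to −0.30 for cyclic AMP-responsive and immediate early genes; without dicoumarol replicate 3 these 2 medians were 0.19 and −0.13.

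Matrix genes moved in both directions, with more rises than falls. ELN, which encodes elastin, the stretchable core of elastic fibres, had 44.8, 83.1 and 50.9 normalized counts in vehicle and 207, 254 and 272 with dicoumarol (log2 fold change 2.06, SE 0.22, limma adjusted p = 2.7e-05). The lowest dicoumarol library stood well above the highest vehicle library. COL11A1 (ENSSSCG00000006857, chromosome 4, 115634172 to 115840708, plus strand), a minor fibril collagen chain of cartilage, had 7009, 7249 and 8375 with vehicle and 13771, 14674 and 15299 with dicoumarol (log2 fold change 0.95, SE 0.12, limma adjusted p = 0.00016). COL15A1, a basement membrane collagen of fat and muscle, rose from 47546 ± 1077 to 67488 ± 3539.6 (SD, n = 3; log2 fold change 0.50, SE 0.08, limma adjusted p = 0.0029). COL11A1 and COL15A1 kept their calls without each of the 6 libraries in turn. Magnolol against vehicle gave 1.74 for ELN (limma adjusted p = 8.0e-05), 1.42 for COL11A1 (7.3e-07) and 0.91 for COL15A1 (2.6e-06). Rosiglitazone gave 0.33 (0.43), 0.28 (0.16) and 0.75 (7.7e-06). Of 19 tested collagen chains, 0 were called higher and 3 lower with dicoumarol than with magnolol, and 10 higher and 1 lower than with rosiglitazone.

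The call of the most abundant collagen was not stable. COL1A1 (ENSSSCG00000036135, chromosome 12, 26379090 to 26397004, minus strand), the main chain of type I collagen, took 1.65% to 1.91% of all counts in vehicle and 2.50% to 2.67% in dicoumarol libraries. Its normalized counts were 1062900, 1084530 and 970133 in vehicle and 1621690, 1569430 and 1502530 with dicoumarol (log2 fold change 0.59, SE 0.13, limma adjusted p = 0.026), so the groups lay apart. The call was lost without any 1 of the 6 libraries (limma adjusted p 0.052 to 0.14) and after quantile normalization, where the log2 fold change was 0.09 (0.90). Quantile normalization gives each gene a value set by its rank, and COL1A1 ranked 3 or 4 in all 6 libraries. That setting could therefore show little of a change in so abundant a gene, and it does not bear on the stability of the call. COL16A1 (0.53) and COL5A1 (0.49) were also called; COL16A1 lost its call without dicoumarol replicate 1 (0.054), and COL5A1 without vehicle replicate 3 (0.074), without any 1 dicoumarol replicate (0.061 to 0.071) and after quantile normalization (0.14). Of 28 listed collagen chains 19 passed the filter, 5 of these rose and 0 fell, and the median was 0.26, or 0.10 after quantile normalization. The rises numbered 3 without vehicle replicate 3, dicoumarol replicate 2 or dicoumarol replicate 3, 2 without dicoumarol replicate 1, and 3 after quantile normalization.

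Of 41 tested proteoglycans, elastic fibre proteins, crosslinking enzymes and adhesive glycoproteins of 45 listed, 10 rose and 2 fell, with a median of 0.11. FBLN2, an elastic fibre and basement membrane fibulin, rose from 5065 ± 713 to 8898 ± 1395 (SD, n = 3; log2 fold change 0.81, SE 0.14, limma adjusted p = 0.0041). LTBP2, a microfibril protein, rose from 117616 ± 2794 to 163916 ± 6738 (log2 fold change 0.48, SE 0.09, limma adjusted p = 0.0057). ASPN (0.49) and PRELP (0.61), both small leucine-rich proteoglycans, rose as well, while DCN, or decorin, of the same family, fell from 9505 ± 212 to 6522 ± 398 (log2 fold change −0.54, SE 0.06, limma adjusted p = 8.3e-05). Members of 1 proteoglycan family thus went opposite ways. DCN did not pass the test against magnolol (−0.03, limma adjusted p = 0.94) and was higher than with rosiglitazone (0.51, 2.6e-05). ASPN and PRELP lost their calls without vehicle replicates 1 or 2 or dicoumarol replicates 2 or 3 (limma adjusted p 0.062 to 0.14 and 0.052 to 0.092). Leaving out vehicle replicate 1 or dicoumarol replicate 3 left 5 rises, leaving out vehicle replicate 3 or dicoumarol replicate 1 left 6, and leaving out dicoumarol replicate 2 left 4.

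Among matrix proteases and their inhibitors 1 of 23 tested genes rose and 2 fell. PI15, a secreted peptidase inhibitor, fell from 151 ± 28.6 to 70.0 ± 7.60 (SD, n = 3; log2 fold change −1.09, SE 0.20, limma adjusted p = 0.0055). PLAT, tissue plasminogen activator, fell by 0.38 on the log2 scale and lost its call without dicoumarol replicate 1 (limma adjusted p 0.063). ADAM12, a membrane metalloprotease, rose by 0.30, a call that held without vehicle replicate 3 and was lost without any 1 of the other libraries (0.051 to 0.10).

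CSPG4 and ITGA7, genes of perivascular and muscle cells, rose. CSPG4, the NG2 proteoglycan of pericytes and progenitors, had 3684, 3199.8 and 3398 in vehicle and 7767, 7415 and 7673 with dicoumarol (log2 fold change 1.15, SE 0.07, limma adjusted p = 4.6e-08). ITGA7, a laminin receptor subunit of muscle, had 640.0, 669 and 631 with vehicle and 1869, 1959.5 and 1838 with dicoumarol (log2 fold change 1.54, SE 0.09, limma adjusted p = 1.9e-08). Within each group the values of both genes lay close together, and the groups were far apart. CNN1, the smooth muscle calponin, rose from 777 ± 119 to 1275 ± 155 (SD, n = 3; log2 fold change 0.72, SE 0.18, limma adjusted p = 0.043), a call lost without any 1 of the 6 libraries (limma adjusted p 0.054 to 0.23). AXL, a receptor kinase, rose by 0.26, and lost its call without vehicle replicates 1 and 2 (0.093 and 0.078) and dicoumarol replicates 1 and 3 (0.071 and 0.14). CNN1 and AXL were the 2 called of 24 tested contractile and YAP or SRF target genes, whose median was 0.12. Of the 9 pericyte and smooth muscle markers, CSPG4 and MYH11, a smooth muscle myosin, rose (0.71 for MYH11) and ABCC9, a potassium channel subunit, fell (−0.45); MYH11 and ABCC9 are named here after their values were seen. MYH11 lost its call without vehicle replicate 1 (0.054) or dicoumarol replicates 2 (0.071) or 3 (0.052). The 9 markers summed to between 75350 and 89852 normalized counts in vehicle and between 91315 and 101623 in dicoumarol libraries. Skeletal muscle markers summed to 145 to 166 and 209 to 220, with MYF5, MYOD1 and PAX7 at 0 in all 6 libraries. The part of such cells in these rises was not tested. CSPG4 did not pass the test against magnolol (−0.25, limma adjusted p = 0.12) or rosiglitazone (−0.04, 0.81). ITGA7 was lower with dicoumarol than with magnolol (−0.79, limma adjusted p = 7.3e-05) and rosiglitazone (−1.15, 1.1e-07).

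Of 9 tested fibroblast and preadipocyte markers 1 was called higher, COL1A1, and 3 were called lower, PDGFRA, DCN and LUM. The median was 0.21, with 5 markers above 0 and 4 below. At an unadjusted limma p under 0.05, 5 were higher and 3 lower. PDGFRA, the platelet-derived growth factor receptor that marks preadipocytes, had 65376, 60254 and 56399 in vehicle and 44159, 40038 and 34695 with dicoumarol (log2 fold change −0.62, SE 0.09, limma adjusted p = 0.0013), with no overlap. LUM, or lumican, was at −0.29 and lost its call without any 1 of the 6 libraries (limma adjusted p 0.051 to 0.19). PDGFRA and LUM are named here after their values were seen. SFRP2, a secreted Wnt modulator, rose from 6174 ± 237 to 8721 ± 301 (SD, n = 3; log2 fold change 0.50, SE 0.07, limma adjusted p = 0.00052). It was the 1 gene called of 30 tested in the Wnt list (3.33%, against 1.94% over all tested genes).

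Of 27 tested glycolytic and hypoxia-responsive genes 5 fell and 0 rose. HK2 (ENSSSCG00000008261, chromosome 3, 68153835 to 68231615, minus strand), the inducible hexokinase that traps glucose, had 4147, 3365 and 3965 in vehicle and 2759, 2444 and 2740.1 with dicoumarol (log2 fold change −0.53, SE 0.08, limma adjusted p = 0.0018). PFKFB3, which makes the activator of phosphofructokinase, had 1400.1, 1369 and 1198 with vehicle and 921, 939 and 901 with dicoumarol (log2 fold change −0.52, SE 0.09, limma adjusted p = 0.0042). EGLN3, a HIF prolyl hydroxylase induced by hypoxia, had 633, 568 and 568 with vehicle and 379, 370.0 and 373 with dicoumarol (log2 fold change −0.65, SE 0.10, limma adjusted p = 0.00093). In each gene the highest dicoumarol library was below the lowest vehicle library. LDHA, lactate dehydrogenase, went from 49585 ± 5029 to 37862 ± 1849.6 (SD, n = 3; log2 fold change −0.39, SE 0.09, limma adjusted p = 0.026), and PGK1, phosphoglycerate kinase, from 24208 ± 2096 to 19540.2 ± 920.2 (log2 fold change −0.31, SE 0.07, limma adjusted p = 0.018). Of the 27 tested, from 30 listed, 25 were below 0, and the median was −0.20 against 0.00 over all genes. LDHA lost its call without any 1 of 5 libraries, the exception being vehicle replicate 2 (0.053 to 0.15), and PGK1 without vehicle replicates 1 and 3 (0.12 and 0.065) and dicoumarol replicates 2 and 3 (0.12 and 0.11). The number of falls was 3 without vehicle replicate 1, vehicle replicate 3, dicoumarol replicate 2 or dicoumarol replicate 3.

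These 5 genes were lower with dicoumarol than with magnolol and than with rosiglitazone. Mean HK2 was 2648 ± 177 with dicoumarol, 3933 ± 312 with magnolol and 5619.8 ± 337 with rosiglitazone (SD, n = 3; dicoumarol minus magnolol −0.57, limma adjusted p = 0.00096; minus rosiglitazone −1.09, 9.1e-08). PFKFB3 (−0.52, limma adjusted p = 0.0054), EGLN3 (−0.60, 0.0022), LDHA (−0.46, 0.01) and PGK1 (−0.33, 0.013) were likewise lower with dicoumarol than with magnolol, and all 4 were lower than with rosiglitazone (−0.82, −1.29, −0.81 and −0.57; limma adjusted p = 6.5e-06, 6.4e-08, 4.6e-06 and 9.4e-06). Of the 27 genes, 9 were called lower than with magnolol and 20 lower than with rosiglitazone, and 0 were called higher in either comparison. Over all tested genes 1.26% and 6.96% were called lower.

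**Figure D4:**
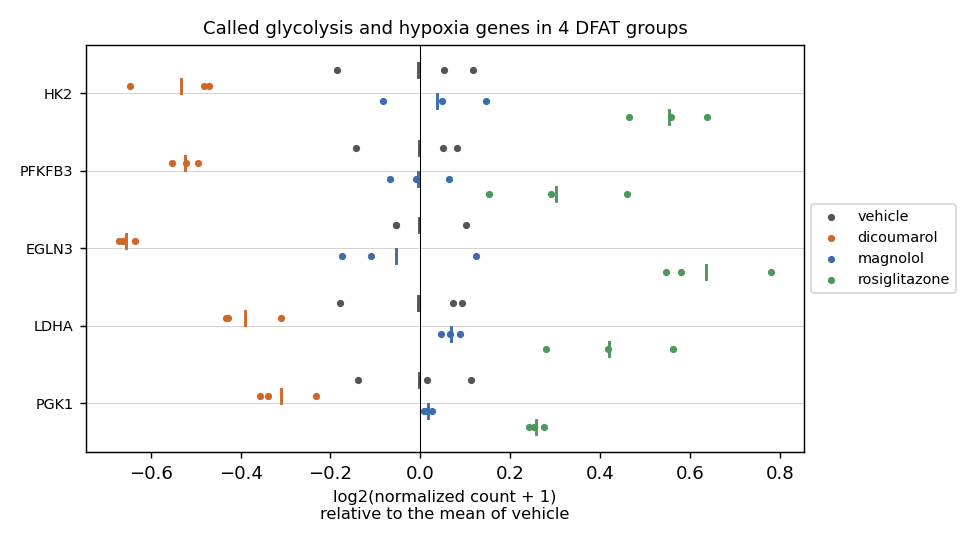
HK2, PFKFB3, EGLN3, LDHA and PGK1 in 4 DFAT groups of 3 libraries, each point 1 library on log2(normalized count + 1) minus the log2 of the vehicle mean + 1 (horizontal axis), short bars being group means. The dicoumarol points lie to the left of the points of the other groups in each gene, and the rosiglitazone points lie farthest to the right.

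The phosphodiesterase genes PDE4D, PDE7B and PDE4B fell. PDE4D (ENSSSCG00000016929, chromosome 16, 37897302 to 39306364, minus strand), a cyclic AMP-specific phosphodiesterase, had 1299, 1171 and 1308 in vehicle and 503, 536 and 525 with dicoumarol (log2 fold change −1.27, SE 0.08, limma adjusted p = 4.6e-08). PDE7B, another cyclic AMP phosphodiesterase, had 1361, 1562 and 1325 with vehicle and 533, 609 and 523 with dicoumarol (log2 fold change −1.35, SE 0.10, limma adjusted p = 1.9e-07). PDE4B had 1676, 1721 and 1255 with vehicle and 635, 825 and 443 with dicoumarol (log2 fold change −1.32, SE 0.23, limma adjusted p = 0.0042), with a wider spread between replicates than the other members. In each gene every dicoumarol library was below every vehicle library. Of 16 tested phosphodiesterases of 19 listed, 0 rose and 3 fell, with a median of −0.07. All 6 libraries came from medium with IBMX, which inhibits most of these enzymes.

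NR4A1, SIK1, STC1 and NR4A2, genes that cyclic AMP can induce, fell. NR4A1 (ENSSSCG00000031321, chromosome 5, 17385390 to 17408511, plus strand), an immediate early orphan receptor, had 444, 321 and 423 in vehicle and 189, 156 and 164 with dicoumarol (log2 fold change −1.21, SE 0.13, limma adjusted p = 4.8e-05). SIK1, a salt-inducible kinase that feeds back on CREB signalling, had 3460.4, 3712 and 3033 with vehicle and 1585, 1707 and 1442 with dicoumarol (log2 fold change −1.11, SE 0.11, limma adjusted p = 1.6e-05). STC1, a secreted glycoprotein hormone, had 104, 108 and 97.8 with vehicle and 48.7, 41.1 and 22.6 with dicoumarol (log2 fold change −1.51, SE 0.28, limma adjusted p = 0.0069), dicoumarol replicate 3 being the lowest. None of these groups overlapped. NR4A2, a relative of NR4A1, fell by 0.60 on the log2 scale, lost its call after quantile normalization (limma adjusted p 0.065) and kept it only without vehicle replicate 2 among the 6 leave-outs (otherwise 0.11 to 0.25). CREB3L1, a membrane-bound transcription factor of secretory cells, went the other way, from 15769.9 ± 812 to 20570.1 ± 609 (SD, n = 3; log2 fold change 0.38, SE 0.08, limma adjusted p = 0.022); it too kept its call only without vehicle replicate 2 (otherwise 0.068 to 0.12). Of 28 tested genes of 30 listed, 1 rose and 4 fell, 23 were below 0, and the median was −0.30. That median was −0.13 without dicoumarol replicate 3 and −0.18 without vehicle replicate 1, and between −0.40 and −0.25 without any 1 of the others.

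Magnolol and rosiglitazone differed from dicoumarol in some of these genes. SIK1 was 1578 ± 132 with dicoumarol, 2579 ± 225 with magnolol and 5221 ± 547 with rosiglitazone (SD, n = 3; dicoumarol minus magnolol −0.71, limma adjusted p = 0.0017; minus rosiglitazone −1.72, 9.8e-09). PDE7B (−0.57, limma adjusted p = 0.0031) and STC1 (−1.29, 0.025) were also lower than with magnolol. PDE4D (−0.32, 0.063), PDE4B (−0.09, 0.95) and NR4A1 (−0.39, 0.22) did not pass the test against magnolol, and all 3 were lower than with rosiglitazone (−1.05, −0.74 and −1.71; 9.5e-08, 0.045 and 1.2e-07).

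**Figure D5:**
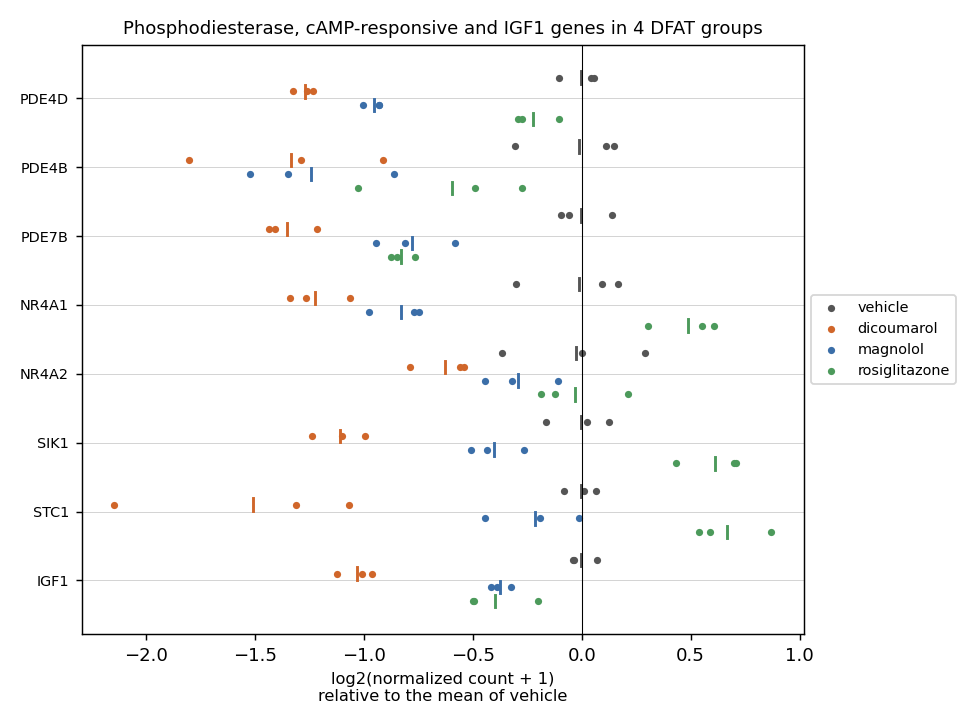
Phosphodiesterase genes PDE4D, PDE4B and PDE7B, the cyclic AMP-responsive genes NR4A1, NR4A2, SIK1 and STC1, and IGF1 in 4 DFAT groups of 3 libraries, each point 1 library on log2(normalized count + 1) minus the log2 of the vehicle mean + 1 (horizontal axis), short bars being group means. Dicoumarol points lie left of the vehicle points in all 8 genes; the magnolol means lie between those of dicoumarol and vehicle in all 8, and the rosiglitazone means lie right of vehicle for NR4A1, SIK1 and STC1.

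IGF1 and 2 genes that act on its availability fell. IGF1 (ENSSSCG00000000857, chromosome 5, 81775970 to 81848033, plus strand), the growth factor that adipogenic cells secrete and respond to, had 4116, 4123 and 4438 in vehicle and 1942, 2168 and 2103 with dicoumarol (log2 fold change −1.03, SE 0.08, limma adjusted p = 4.6e-07). The groups did not overlap. It was also lower than with magnolol (−0.65, limma adjusted p = 0.00013) and rosiglitazone (−0.63, 1.9e-05). IGFBP2, an IGF binding protein, fell by 0.42 on the log2 scale, and PAPPA, the protease that frees IGF from its binding proteins, fell by 0.33. Of 19 tested genes of insulin-like growth factor and insulin signalling, 0 rose and 3 fell, with a median of −0.04. IGFBP2 lost its call without vehicle replicate 1 (0.056) or dicoumarol replicate 3 (0.066), and PAPPA kept its call only without vehicle replicate 2 (otherwise 0.053 to 0.12). The falls in the list numbered 1 without vehicle replicate 1 and 1 without dicoumarol replicate 3.

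Of targets of TGF-beta, BMP and glucocorticoid signals, TGFBI, ID2, ID3, SGK1 and ERRFI1 fell. TGFBI, a secreted matrix protein named for its induction by TGF-beta, had 1387, 1309 and 1267 in vehicle and 737, 725 and 777 with dicoumarol (log2 fold change −0.82, SE 0.08, limma adjusted p = 5.6e-06). ID2, an inhibitor of helix-loop-helix factors and a BMP target, fell from 1457 ± 88.4 to 948 ± 57.7 (SD, n = 3; log2 fold change −0.62, SE 0.10, limma adjusted p = 0.0018). ID3 fell by 0.63 on the log2 scale, a call lost without any 1 of the 6 libraries (limma adjusted p 0.053 to 0.24). Of 33 tested TGF-beta and BMP genes 0 rose and 3 fell, with a median of −0.03. Of 16 tested glucocorticoid receptor targets 0 rose and 2 fell: SGK1, a kinase of ion transport, went from 3796 ± 445 to 2516 ± 209 (log2 fold change −0.59, SE 0.10, limma adjusted p = 0.0029), and ERRFI1, a feedback inhibitor of EGF receptors, from 1975 ± 162 to 1153 ± 125 (log2 fold change −0.78, SE 0.10, limma adjusted p = 0.00035).

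Inflammatory genes moved both ways. IL33 (ENSSSCG00000005203, chromosome 1, 215899436 to 215941840, minus strand), an alarmin cytokine of stromal cells, had 1651, 1392 and 1816 in vehicle and 775, 767 and 744 with dicoumarol (log2 fold change −1.08, SE 0.12, limma adjusted p = 6.8e-05), a clear separation. It was also lower than with magnolol (−0.82, limma adjusted p = 0.0013). CXCL12, the stromal chemokine that retains haematopoietic cells, fell from 742 ± 113 to 408 ± 36.5 (SD, n = 3; log2 fold change −0.85, SE 0.15, limma adjusted p = 0.0048), and IL1R1, the receptor of interleukin-1, from 43462 ± 590.1 to 34936 ± 704 (log2 fold change −0.32, SE 0.05, limma adjusted p = 0.0024). TNFAIP3, a brake on NF-κB, rose by 0.36 and CSF1, the macrophage growth factor, by 0.32. Of 26 tested genes 2 rose and 3 fell. The TNFAIP3 call was lost without vehicle replicate 2 (0.072) and dicoumarol replicates 1 and 2 (0.064 and 0.11). The CSF1 call was lost after quantile normalization (0.050) and kept only without vehicle replicate 2 among the leave-outs (otherwise 0.052 to 0.18). C3, the central complement component, fell from 565 ± 70.0 to 301 ± 33.2 (log2 fold change −0.90, SE 0.17, limma adjusted p = 0.0081), the 1 called gene of 15 tested complement genes, and lost its call without vehicle replicate 1 (0.058) or dicoumarol replicate 3 (0.059).

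NQO1, the quinone reductase that dicoumarol inhibits, was lower at the RNA level. NQO1 (ENSSSCG00000002754, chromosome 6, 17292770 to 17302590, plus strand) had 2229, 2305 and 2328 normalized counts in vehicle and 1673, 1775 and 1744 with dicoumarol (log2 fold change −0.40, SE 0.08, limma adjusted p = 0.0095), with no overlap. Without dicoumarol replicate 1 it was not called (0.062). NQO1 was higher with dicoumarol than with magnolol (0.40, limma adjusted p = 0.013) and did not pass the test against rosiglitazone (−0.05, 0.77). Against vehicle NQO1 was also lower with rosiglitazone (−0.35, limma adjusted p = 0.0062) and with magnolol (−0.80, 5.5e-06), so its fall was not particular to dicoumarol. VKORC1, the vitamin K epoxide reductase subunit that coumarins block, had 2079.8, 2081 and 1723 with vehicle and 1982, 1977 and 1866 with dicoumarol (log2 fold change −0.01, SE 0.10, limma adjusted p = 0.99), overlapping groups. Of 16 tested genes of the vitamin K cycle and vitamin K-dependent proteins, of 23 listed, NQO1 was the 1 called. Among 23 tested NRF2 targets 0 rose and 3 fell: NQO1, TXNRD1 (−0.34), the thioredoxin reductase, and SRXN1 (−0.32), which repairs peroxiredoxins. TXNRD1 and SRXN1 kept their calls only without vehicle replicate 2 (otherwise 0.064 to 0.12 and 0.090 to 0.17). The falls in this list numbered 1 without vehicle replicate 1, vehicle replicate 3, dicoumarol replicate 2 or dicoumarol replicate 3, and 0 without dicoumarol replicate 1.

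Xenobiotic genes gave 4 calls among 13 tested. AHRR, the repressor induced by the aryl hydrocarbon receptor, had 940.1, 938 and 901 in vehicle and 1381, 1196 and 1339 with dicoumarol (log2 fold change 0.49, SE 0.07, limma adjusted p = 0.00079), and was higher than with magnolol (0.32, limma adjusted p = 0.028) and rosiglitazone (0.38, 0.0011). CYP1A1 and CYP1A2, the classic enzymes of that pathway, did not pass the filter on low values. TIPARP (−0.22, limma adjusted p = 0.071) and CYP1B1 (−0.17, 0.41), further genes of that pathway, were below 0 and not called. They are named here after their values were seen. TIPARP was called lower with a replicate block (0.029) or without vehicle replicate 2 (0.030). Of the 13 tested genes 7 were above 0 and 6 below, with a median of 0.07. ALDH1A1, which makes retinoic acid, fell from 22090.2 ± 968 to 13537 ± 980.5 (SD, n = 3; log2 fold change −0.71, SE 0.08, limma adjusted p = 5.0e-05). SULT1A3, a phenol sulfotransferase, fell from 1183 ± 141 to 551 ± 89.6 (log2 fold change −1.11, SE 0.19, limma adjusted p = 0.0033); near-identical sulfotransferase copies could share its reads, so its value is uncertain. NQO1, the fourth, is described above.

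Stress, cell cycle and antiviral lists gave few or no calls. In the integrated stress response list NUPR1, a stress-induced nuclear protein, fell by 0.61 on the log2 scale (limma adjusted p = 0.0069; 0.057 without dicoumarol replicate 3), PCK2 rose as given above, and 23 of 25 tested genes were not called. Of 22 tested endoplasmic reticulum chaperone and unfolded protein response genes limma called 0, and 1 had an unadjusted p under 0.05, with CALR at 0.05 and CANX at −0.04. Of 31 tested cell cycle genes 1 fell, CDKN2B, a cyclin-dependent kinase inhibitor (−0.35; lost without any 1 of the 6 libraries, limma adjusted p 0.053 to 0.17). That is 3.23% of the list, against 1.94% called over all tested genes. Of 37 tested interferon-stimulated genes 34 were above 0 (7428 of 14819 over all tested genes) with a median of 0.30; limma called 0, and 6 had an unadjusted p under 0.05. That median was 0.19 without dicoumarol replicate 3 and 0.48 without dicoumarol replicate 2, and between 0.21 and 0.37 without any 1 of the others. MX1, an antiviral GTPase, had 7684, 9117 and 9551 in vehicle and 11494, 8616 and 12737 with dicoumarol, overlapping groups (log2 fold change 0.30, SE 0.18, limma adjusted p = 0.63). Of 12 tested LXR targets limma called 0, and 3 had an unadjusted p under 0.05; NPC2 (0.04) and ABCA1 (−0.17) were the most abundant.

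The remaining genes among the largest changes encode secreted or membrane proteins for the most part. CPAMD8 (ENSSSCG00000013869, chromosome 2, 60636047 to 60742137, plus strand), a relative of complement C3 and alpha-2-macroglobulin, had 121, 125 and 92.7 in vehicle and 26.3, 33.4 and 21.6 with dicoumarol (log2 fold change −2.03, SE 0.24, limma adjusted p = 8.3e-05). CBLN4, a secreted cerebellin, fell from 1988 ± 316 to 776 ± 49.5 (SD, n = 3; log2 fold change −1.35, SE 0.12, limma adjusted p = 4.2e-06), and NPTX1, a pentraxin, from 469 ± 45.3 to 209 ± 13.5 (log2 fold change −1.16, SE 0.13, limma adjusted p = 6.9e-05). AMCF-II, a pig CXC chemokine, fell by 1.29 on the log2 scale, and ESM1, the proteoglycan endocan, fell by 1.16 (limma adjusted p = 0.0018 and 0.0072). AQP3, a channel for water and glycerol, had 168, 221 and 165 in vehicle and 495, 442 and 391 with dicoumarol (log2 fold change 1.26, SE 0.13, limma adjusted p = 1.7e-05), with no overlap. HSPB7, a small heat shock protein of muscle, rose by 1.22 and KIF5A, a kinesin heavy chain, by 1.11 (0.0097 and 0.018).

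Tested directly, dicoumarol differed from magnolol in 233 genes, 1.57% of those tested, of which 46 were higher (0.31%) and 187 lower (1.26%) with dicoumarol. It differed from rosiglitazone in 1943 genes (13.1%), 911 higher (6.15%) and 1032 lower (6.96%). These comparisons and the one with vehicle share the dicoumarol libraries, and the 3 doses are not known here, so no ranking of the compounds is made. In the direct comparison with magnolol the lower genes included fat cell genes as well as glycolytic genes, IGF1 and IL33. Leaving out a library gave between 115 and 150 genes against magnolol, each well under the 233. With magnolol replicate 1, 2 or 3 left out the counts were 132, 150 and 126, and with dicoumarol replicate 1, 2 or 3 left out 126, 115 and 120.

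The 3T3-L1 medium held insulin, 75 nM dexamethasone, 37.5 µM IBMX and 10% serum. With all libraries and without pairing of replicates, the same comparison gave no call in 3T3-L1 cells. In that table limma called 0 of 15723 tested genes (0%), 393 had an unadjusted p under 0.05, and the smallest adjusted p was 0.907. Same-numbered 3T3-L1 libraries deviated together (correlations 0.229 to 0.339), and their pairing is inferred from these data. With a replicate block 79 genes were called, 72 higher and 7 lower, and the blocked values below rest on that inferred pairing. Without vehicle replicate 1 the unblocked count was 1. The tables of both species were normalized separately, so values are set side by side without a test. Plin1 was 201 ± 97.0 in 3T3-L1 vehicle and 648 ± 312 with dicoumarol, a log2 fold change of 1.65, against 2.15 in DFAT cells. Its SE in 3T3-L1 was 0.17 with the replicate block (limma adjusted p 0.00023) and 0.38 without it (0.91). Cidec was at 2.21 in 3T3-L1 (blocked adjusted p 0.0008) and 0.89 in DFAT cells, and Adipoq at 1.46 (blocked adjusted p 0.00023) and 3.39; in all 3 genes every dicoumarol library of both systems lay above its vehicle mean. Hk2 was at 0.35 in 3T3-L1 (blocked SE 0.07, blocked limma adjusted p 0.034) and −0.53 in DFAT cells. Col11a1 was at −0.20 in 3T3-L1 (blocked SE 0.12, blocked limma adjusted p 0.94) and 0.95 in DFAT cells. The named genes were called in DFAT cells without a block, so the blocked 3T3-L1 counts come from an unlike model. Of the named genes that rose in DFAT cells 28 of 34 were tested in 3T3-L1. There 16 were above 0 and 12 below, and 8 were called with the block. Of the named genes that fell 33 of 41 were tested, with 12 above 0, 21 below and 3 called with the block. Without the block 0 were called in either direction.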

How the data were processed

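Poly(A)-selected, dUTP-stranded libraries were made from bulk RNA, per the labels' protocols; the strand setting of the counting is not given in the sources used here. STAR, DESeq2 and bcl2fastq 2.19.1.403 are named in the submitters' processing notes. The authors deposited a table of DESeq2 size-factor normalized counts for 34307 pig genes, a signal unit that is comparable between libraries. Genome coordinates are those of the deposited table, whose pig build is not named in the sources used here; ends are the listed stop minus 1. Between 89.95% and 90.44% of low values (up to 20 reads, tolerance 0.02 reads) were whole multiples of the value of 1 read, so counts were not recovered and no count test was run.

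Values were tested on log2(value + 1) with limma 3.58.1 (R 4.3.3): genes averaging 10 or more over 15 libraries, a single model of 5 groups, variances moderated toward a trend, two-sided p-values and Benjamini-Hochberg adjustment over all tested genes. The 3T3-L1 table was fitted alike. On simulated data for the DFAT comparison (14666 genes, 200 changed), 76.5% of changed genes were recovered: 58.2% at 1.5-fold, 76.1% at 2-fold and 95.5% at 4-fold, with 8 false among 161 calls. In the 3T3-L1 table, same-numbered vehicle and dicoumarol replicates deviated together (correlations of deviations 0.339, 0.229 and 0.295, each over 0.1), from the numbers in the labels.

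Named genes were the 10 largest rises and 10 largest falls among called, non-overlapping genes with a mean of at least 50, up to 6 called members of each of 33 gene lists (or, with none called, the 2 most abundant), and NQO1, VKORC1, PPARG, CEBPA, COL1A1, FABP4 and ADIPOQ; 1 gene that this rule names is not reported here. The groups and lists were chosen with earlier results of these data known. Alternatives were other pseudocounts (5 and 0.5), other filters, only the compared groups, no variance trend, quantile normalization, a replicate block and each library left out. No pig promoter or protein sequences were used here.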

Additional observations from a re-analysis of the deposited data

Results flagged for a closer look

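In 11 of 61 genes that the naming rule picked, called in DFAT cells and tested in 3T3-L1, every 3T3-L1 dicoumarol library lay on the opposite side of its vehicle mean from the DFAT libraries. In 15 of the 61 every library lay on the same side. Over 15702 3T3-L1 genes, 14.8% had all 3 dicoumarol libraries above the vehicle mean and 17.0% had all 3 below. The 11 of 61 is near these shares, so the genes below are not read as a set. Of all 200 genes called in DFAT cells and tested in 3T3-L1, 27 lay on the opposite side and 41 on the same side. Without a replicate block limma called none of the 11 in 3T3-L1 cells. With the block, which takes same-numbered libraries as paired, HK2 was called higher (limma adjusted p = 0.034) and the other 10 were not. The difference between the systems was not tested. Of genes that rose in DFAT cells, the 3T3-L1 log2 fold changes were −0.197 for COL11A1, −0.184 for FBLN2, −0.317 for PRELP, −0.151 for COL1A1, −0.357 for SFRP2, −0.0491 for ASPN and −0.127 for CREB3L1. All but CREB3L1 encode matrix or secreted proteins, a class that several of the naming lists hold. Of genes that fell in DFAT cells, they were 0.261 for EBF2, 0.356 for PFKFB3, 0.35 for HK2 and 0.1 for NR4A2, with PFKFB3 and HK2 acting in glycolysis. MYH11 (−0.385) and FLNC (−0.106), named after their values were seen, rose in DFAT cells and had all 3 dicoumarol libraries below the vehicle mean in 3T3-L1.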

How the results depend on the processing

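The 288 DFAT genes called for dicoumarol against vehicle numbered 201 to 418 under other pseudocounts and filters, with only the compared groups, with no variance trend and after quantile normalization. Leaving out a library gave 153 to 237 genes, 73 to 106 of them higher and 78 to 131 lower. Against magnolol the 233 genes became 149 with no filter and 450 with only the compared groups, and 115 to 150 without a library; against rosiglitazone 1343 to 2019 were called without a library. In 3T3-L1 cells 0 to 1 genes were called without a library. In DFAT cells the replicate numbers are not said to mark a shared culture, and same-numbered libraries correlated at 0.0948, 0.0747 and 0.193, not all above 0.1, although each library correlated best with its own number. With a replicate block 670 genes were called (311 higher, 359 lower) against vehicle, among them all 288, 656 against magnolol and 2924 against rosiglitazone. In 3T3-L1 cells, where same-numbered libraries deviated together, the block gave 79.

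Besides the calls lost without a library, which stand beside each gene in the report, calls ended with no filter on low genes or with no variance trend. Both ended them for ASPN, CDKN2B, CNN1, CREB3L1, CSF1, HSPB7, ID3, INSIG1, KIF5A, LDHA, LUM, MYH11, NR4A2, PAPPA, PCK2, PRELP, SRXN1 and TXNRD1. The first alone did so for COL1A1 and COL5A1 and the second alone for ADAM12. Their limma adjusted p lay between 0.055 and 0.27 with no filter and between 0.051 and 0.16 with no trend.

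Some uncalled genes near 0 changed sign. After quantile normalization COX1 was at −0.094 and CANX at 3.4e-05. For COX1, one of the most abundant genes, that setting could show little of a change, since it gives values by rank. Leaving out 1 library gave −0.10 to 0.036 for VKORC1, −0.060 to 0.0056 for CS, −0.019 to 0.13 for OGDH, −0.062 to 0.0011 for ATP5F1A and −0.071 to 0.0027 for CANX. The causes were not tested. The 3 libraries per group limit small changes, since 58.2% of simulated 1.5-fold changes were recovered.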

Other observations

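The genes below were named after their values were seen and belong to no list given in the report. BDKRB2 and EDNRA, receptors for vasoactive peptides, fell with dicoumarol in DFAT cells. The bradykinin receptor gene BDKRB2 had 458, 458 and 468 normalized counts in vehicle and 227, 209.8 and 221 with dicoumarol (log2 fold change −1.07, SE 0.12, limma adjusted p = 4.2e-05), and the endothelin receptor gene EDNRA had 2248, 2118 and 2238 with vehicle and 1217, 1313 and 1329 with dicoumarol (log2 fold change −0.78, SE 0.07, limma adjusted p = 5.0e-06). In both genes the groups lay far apart. In addition 3 genes of secreted growth factors fell: EREG, an EGF receptor ligand, went from 2892 ± 162 to 1573 ± 76.7 (SD, n = 3; log2 fold change −0.88, SE 0.07, limma adjusted p = 1.4e-06), ANGPT1, the ligand of the endothelial receptor TEK, from 5604 ± 255 to 3713 ± 209 (log2 fold change −0.59, SE 0.07, limma adjusted p = 0.00012), and FGF7, a growth factor for epithelial cells, from 18096 ± 1504 to 13178 ± 345 (log2 fold change −0.45, SE 0.07, limma adjusted p = 0.0018).

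PRKAR1A, a regulatory subunit of the cyclic AMP-dependent kinase, fell from 23930 ± 1353 to 18447 ± 772 (SD, n = 3; log2 fold change −0.37, SE 0.06, limma adjusted p = 0.0033). CTSC, a lysosomal protease, fell from 28733 ± 1231 to 18206 ± 893 (log2 fold change −0.66, SE 0.06, limma adjusted p = 7.1e-06). In retinoid metabolism CRABP2 and CYP26B1 rose, while ALDH1A1 fell as given above. CRABP2, a retinoic acid carrier, had 672, 709 and 762 in vehicle and 1223, 1227 and 1289 with dicoumarol (log2 fold change 0.80, SE 0.08, limma adjusted p = 2.7e-05). CYP26B1, which breaks retinoic acid down, had 432, 339 and 381 with vehicle and 673, 597 and 694 with dicoumarol (log2 fold change 0.77, SE 0.12, limma adjusted p = 0.0018). FLNC, the muscle filamin, rose from 2713 ± 119 to 4401 ± 207 (log2 fold change 0.70, SE 0.07, limma adjusted p = 7.1e-06), and TRARG1, a regulator of glucose transporter traffic in adipocytes, from 427 ± 56.8 to 705 ± 73.7 (log2 fold change 0.73, SE 0.11, limma adjusted p = 0.001). These genes kept their calls without each of the 6 libraries in turn.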
